A study of Mus musculus with 12 samples.

Results

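The long-chain acyl-CoA synthetases encoded by Acsl1, Acsl3, Acsl4, Acsl5 and Acsl6 were followed in inguinal white adipose tissue (iWAT) of mice kept warm or exposed to cold. The 5 genes were taken by symbol from the 23420 genes of the count table, which listed no other gene named Acsl followed by a number. RNA-seq had been run on 12 libraries of C57BL/6 male mice, 10 weeks old, with 3 libraries in each of 4 groups. Mice stood at thermoneutrality (TN, 30 °C) for 1 week or in cold (4–6 °C) for 3 days. Both genotypes carried HIF2a alleles with loxP sites (HIF2a loxP/loxP). WT mice had no Cre, and the mice labelled HIF2α AKO also carried Adipoq-Cre, a recombinase expressed in adipocytes. The whole fat pad was sequenced, so that RNA of cells without Cre was measured too, and Cre and the loss of HIF2α cannot be told apart. Nothing in the labels says whether a library is 1 mouse, so p-values measure the spread between these libraries.

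Acyl-CoA synthetases join a fatty acid to coenzyme A at the cost of ATP, and only the activated acyl-CoA can be burned, stored or built into membranes. The long-chain family works on the common dietary and stored fatty acids, and its members differ in where they sit in the cell and in which fatty acids they prefer. ACSL1 is known as the main form of adipocytes, and in brown fat it feeds fatty acids into mitochondrial oxidation during cold. ACSL5 sits on mitochondria and the endoplasmic reticulum, ACSL3 on the endoplasmic reticulum and on growing lipid droplets. ACSL4 prefers arachidonic acid and other polyunsaturated fatty acids and takes part in ferroptosis, and ACSL6 is best known from brain.

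Acsl1, Acsl5 and Acsl3 were higher in cold than at TN, by 3.39-fold, 2.04-fold and 2.16-fold when both genotypes were averaged. Acsl4 differed by 1.17-fold, and this small difference depended on the scaling of the libraries. Acsl6 had at most 13 reads in a library. In cold, Acsl5 was 1.96-fold higher in the libraries labelled HIF2α AKO than in WT without passing the limit over all genes, and Acsl1 differed by 0.011 (SE 0.36) on the log2 scale.

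The 250 bases before a listed start of the 4 members that could be tested are shown, because these genes lie on 4 chromosomes and these windows differ in base composition. The sequences are RefSeq's for GRCm38.p6, 5′ to 3′ on the strand of the gene, and all 5 members had an entry. Capitals mark matches on either strand to 8 short motifs, and matches may adjoin or overlap. They are the cAMP response element TGACGTCA, its core TGACG, the hypoxia response element cores ACGTG and, in its other form, GCGTG, the nuclear receptor site AGGTCA, the TATA box TATAAA, the CCAAT box and the GC box GGGCGG. Acsl1 has a second listed start, whose window at chr8:46490716-46490965 is not shown. That second window has 48.4% G and C and holds no GCGTG or GGGCGG, and it holds CCAAT at 2 places. The windows are chr8:46470787-46471036 (plus strand) for Acsl1, chr19:55253119-55253368 (plus strand) for Acsl5, chr1:78657575-78657824 (plus strand) for Acsl3 and chrX:142390536-142390785 (minus strand) for Acsl4.
Acsl1: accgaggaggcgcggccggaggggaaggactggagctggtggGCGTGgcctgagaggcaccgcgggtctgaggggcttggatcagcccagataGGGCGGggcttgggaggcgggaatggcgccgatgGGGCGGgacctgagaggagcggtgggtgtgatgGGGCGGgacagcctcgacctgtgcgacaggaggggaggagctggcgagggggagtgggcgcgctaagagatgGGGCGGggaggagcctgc
Acsl5: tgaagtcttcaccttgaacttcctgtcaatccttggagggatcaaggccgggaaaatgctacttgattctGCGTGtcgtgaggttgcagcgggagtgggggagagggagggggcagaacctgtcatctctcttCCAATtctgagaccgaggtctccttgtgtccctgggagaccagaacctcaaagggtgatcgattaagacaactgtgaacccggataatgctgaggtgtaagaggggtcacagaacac
Acsl3: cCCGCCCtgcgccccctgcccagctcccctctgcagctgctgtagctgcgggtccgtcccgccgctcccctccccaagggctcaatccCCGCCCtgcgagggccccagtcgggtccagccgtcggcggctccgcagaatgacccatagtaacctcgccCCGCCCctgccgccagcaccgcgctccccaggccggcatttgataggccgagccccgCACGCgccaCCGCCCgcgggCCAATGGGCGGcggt
Acsl4: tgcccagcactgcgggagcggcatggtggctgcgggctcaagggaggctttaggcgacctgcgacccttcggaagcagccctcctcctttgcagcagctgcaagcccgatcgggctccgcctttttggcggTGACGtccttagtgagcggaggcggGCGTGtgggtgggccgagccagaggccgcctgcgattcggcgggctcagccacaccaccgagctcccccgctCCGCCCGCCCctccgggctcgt

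The windows of Acsl1, Acsl3 and Acsl4 were rich in G and C, at 72%, 75.6% and 70.8%, against a median of 52.4% over 32851 promoter windows. The window of Acsl5 lay near that median, at 52.8%. Each of the 4 windows held GCGTG at 1 place, and 28.2% of all windows held it at 1 place or more. Either ACGTG or GCGTG was held by 38.6% of all windows. These shares are not matched for content of G and C. GGGCGG, held by 32.7% of all windows, was found 4 times for Acsl1, 5 times for Acsl3 and 2 times for Acsl4, and not for Acsl5. TGACG stood only in the window of Acsl4 and is held by 17.8% of all windows. CCAAT was found for Acsl3 and Acsl5 and in 33.9% of all windows. The other motifs were in none of these 4 windows, and of all windows 1.55% held TGACGTCA, while 16.6% held ACGTG, 14.0% held AGGTCA and 12.4% held TATAAA. A match of letters is a description and not a binding site.

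The gene models of GENCODE M21 put Acsl1 on chromosome 8 from 46471037 to 46536051 (plus strand), Acsl3 on chromosome 1 from 78657825 to 78707743 (plus strand) and Acsl4 on chromosome X from 142317993 to 142390535 (minus strand). Acsl5 runs on chromosome 19 from 55251938 to 55297720 (plus strand), so that the window above lies inside its model. Acsl6 runs on chromosome 11 from 54303798 to 54364756 (plus strand). Exons of Acsl3 share 244 bases with Utp14b on the same strand, and exons of Acsl5 share 404 bases with Zdhhc6 on the opposite strand. The strand setting of the counting is not given in the sources used here.

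Libraries held between 22368316 and 35204631 counts on genes. Epas1, which encodes HIF2α, was at 360 ± 76.7 CPM (counts per 1000000 after TMM scaling, mean ± SD, n = 3) in TN WT and 348 ± 53.8 CPM in TN HIF2α AKO. In cold it was at 627 ± 101 CPM in WT and 826 ± 138 CPM in HIF2α AKO. Counts of the targeted gene thus did not fall with the genotype label, and since they cover the whole gene they do not resolve a deleted part. The study itself reported reduced mRNA of the targeted gene in iWAT of its adipocyte knockout mice, measured by RT-qPCR. Ucp1, the uncoupling protein of thermogenic fat, was at 0.204 to 3.85 CPM at TN and at 2171 to 5895 CPM in cold. White adipocyte markers were abundant in all libraries, with a summed level of 11268 to 27626 CPM at TN and 21373 to 41366 CPM in cold for 8 genes. TN HIF2α AKO library 2 and cold HIF2α AKO library 1 stood apart by skeletal muscle transcripts, with 2017 and 1758 CPM summed over 12 markers against 43.3 to 134 CPM in the other 10 libraries. TN WT library 3 stood apart by epithelial transcripts, with 264 CPM summed over 7 markers against 3.58 to 11.5 CPM in the other 11 libraries. In cold against TN averaged over genotypes, edgeR called 3669 of 15306 tested genes lower and 3798 higher (adjusted p under 0.05). In that contrast lymphocyte markers were lower for 8 of 10 genes, with summed levels of 1169 to 1933 CPM at TN and 668 to 1158 CPM in cold. Of 6 adipose progenitor markers 4 were lower in cold, with 684 to 925 CPM at TN and 528 to 717 CPM in cold. Of 10 macrophage markers 3 were lower, a share not far from that of all genes, with 1719 to 2978 CPM at TN and 1446 to 2801 CPM in cold. The part of these other cell types in the members' values was not tested. In bulk tissue, fewer cells of a type and less RNA per cell cannot be told apart.

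Acsl1 was the most abundant member in each library. In TN WT it was measured at 1050.3, 456 and 944 CPM. In TN HIF2α AKO it was measured at 777, 1605 and 1211 CPM. The TN libraries were widely spread, and TN WT library 2, the lowest in Acsl1, was also the lowest in white adipocyte markers. In cold WT, Acsl1 was measured at 2835, 2708 and 4469.6 CPM, and in cold HIF2α AKO at 4181, 3209 and 2697 CPM. Every cold library lay above every TN library. Within WT the log2 fold change was 2.03 (SE 0.37, adjusted p = 0.00439, edgeR), which is 4.09-fold, and within HIF2α AKO it was 1.49 (SE 0.36, adjusted p = 0.0147), which is 2.81-fold. Averaged over genotypes it was 1.76 (SE 0.26, adjusted p = 0.000452), and 2.13% of tested genes had a larger change. The call within HIF2α AKO was lost without TN HIF2α AKO library 1 (log2 fold change 1.26, SE 0.38, adjusted p = 0.0616, edgeR) and without cold HIF2α AKO library 1 (1.30, SE 0.39, adjusted p = 0.0629). Without both libraries with muscle transcripts the change was no smaller but its SE was larger (1.57, SE 0.43, adjusted p = 0.0502). Averaged over genotypes, 3798 of 15306 tested genes and 5 of 8 white adipocyte markers were also higher in cold, the markers with a median log2 fold change of 0.79. Adipoq, an adipocyte hormone gene among them, changed by 0.21 (SE 0.24, adjusted p = 0.478). The part of adipocyte content in the Acsl1 difference was not tested.

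Acsl5 lay in a narrow range at TN, at 99.0, 106 and 104 CPM in WT and at 108, 99.5 and 95.0 CPM in HIF2α AKO. In cold WT it was measured at 177, 131 and 136 CPM. In cold HIF2α AKO it was measured at 377, 293 and 202 CPM. The 4 groups thus fell into 3 ranges that did not overlap, with both TN groups lowest, cold WT between and cold HIF2α AKO highest. Cold and TN did not overlap for 42.0% of tested genes in WT and 50.5% in HIF2α AKO, and the genotypes in cold for 7.53%. The share of genes with all 3 ranges apart was not computed, and edgeR did not call the difference between cold WT and cold HIF2α AKO. Within HIF2α AKO the cold log2 fold change was 1.53 (SE 0.20, adjusted p = 0.000536), a 2.88-fold difference that passed the limit under all alternatives tried. Within WT it was 0.52 (SE 0.19), or 1.44-fold, and missed the limit (adjusted p = 0.0724, edgeR). Averaged over genotypes it was 1.03 (SE 0.14, adjusted p = 0.000244). The WT difference passed the limit with DESeq2 (adjusted p = 0.0440), with voom (0.0120), without cold HIF2α AKO library 1 (0.0373) or 3 (0.0265) and without both libraries with muscle transcripts (0.0491). In 16 of 22 alternatives it again missed the limit. Its log2 fold change lay between 0.38 and 0.58 with 1 library left out and between 0.23 and 0.60 under the other alternatives. Zdhhc6, which shares exon bases with Acsl5, changed by 0.28 (SE 0.057) on the log2 scale upon cold averaged over genotypes.

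Acsl3 was measured at 11.4, 9.90 and 17.8 CPM in TN WT and at 10.7, 14.9 and 18.3 CPM in TN HIF2α AKO. In cold WT the values were spread widely, at 17.0, 23.9 and 45.4 CPM. In cold HIF2α AKO they were 34.6, 30.6 and 27.5 CPM, all above the TN libraries, whereas cold WT library 1 fell within the TN range. The log2 fold change was 1.14 (SE 0.34, adjusted p = 0.0368) within WT and 1.07 (SE 0.34, adjusted p = 0.0396) within HIF2α AKO. The average over genotypes was 1.11 (SE 0.24, adjusted p = 0.00417), and it passed the limit under all alternatives tried. Calls within a genotype were less stable. The WT call was lost without TN WT library 1 (adjusted p = 0.108), TN WT library 2 (0.135), cold WT library 3 (0.168) or cold HIF2α AKO library 2 (0.0541), and the log2 fold change was 0.65 without cold WT library 3. Without TN WT library 3, the library with epithelial transcripts, it was 1.43 (SE 0.37, adjusted p = 0.0219, edgeR). The HIF2α AKO call was lost without TN WT library 1 or any 1 of the 6 HIF2α AKO libraries, with adjusted p up to 0.144. Without both libraries with muscle transcripts the adjusted p was 0.0578 in WT and 0.164 in HIF2α AKO. Utp14b, which shares exon bases with Acsl3, changed by 0.92 (SE 0.24, adjusted p = 0.0102) averaged over genotypes, and reads of the shared bases could have been counted for either gene or left out.

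Of the 4 tested members, Acsl4 varied least across libraries. It was measured at 39.1, 45.3 and 43.8 CPM in TN WT and at 39.6, 37.0 and 38.4 CPM in TN HIF2α AKO. In cold WT it was at 40.3, 48.8 and 47.6 CPM, and in cold HIF2α AKO at 52.5, 47.9 and 47.5 CPM. The WT groups overlapped, and the HIF2α AKO groups did not. Within WT the log2 fold change was 0.093 (SE 0.092, adjusted p = 0.465) and within HIF2α AKO 0.36 (SE 0.092, adjusted p = 0.0173). The average, 0.23 (SE 0.065, adjusted p = 0.0152), was smaller in size than the change of 63.1% of tested genes. With scaling by library size alone, the average turned to -0.058 and the WT value to -0.21, while the median of all tested genes moved from -0.052 to -0.33. A change of scaling shifts all genes by a similar amount, so the distance of Acsl4 from that median is no separate check. Without both libraries with muscle transcripts the average missed the limit (0.19, adjusted p = 0.0750). The call within HIF2α AKO was lost without TN HIF2α AKO library 3 (adjusted p = 0.0515) or cold HIF2α AKO library 1 (0.0813), and library size scaling gave 0.089 there.

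Acsl6 had between 1 and 13 reads in a library and did not pass the filter on low counts, so that 4 of the 5 members were tested. It was counted 9, 3 and 4 times in TN WT and 1, 12 and 1 times in TN HIF2α AKO. In cold WT it was counted 6, 6 and 7 times, and in cold HIF2α AKO 13, 2 and 8 times. The 2 libraries with the highest counts, 13 and 12, were the 2 with skeletal muscle transcripts. Whether these reads came from muscle was not tested. Without the filter, the log2 fold change upon cold averaged over genotypes was 0.91 (SE 0.59, adjusted p = 0.257).

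**Figure D1:**
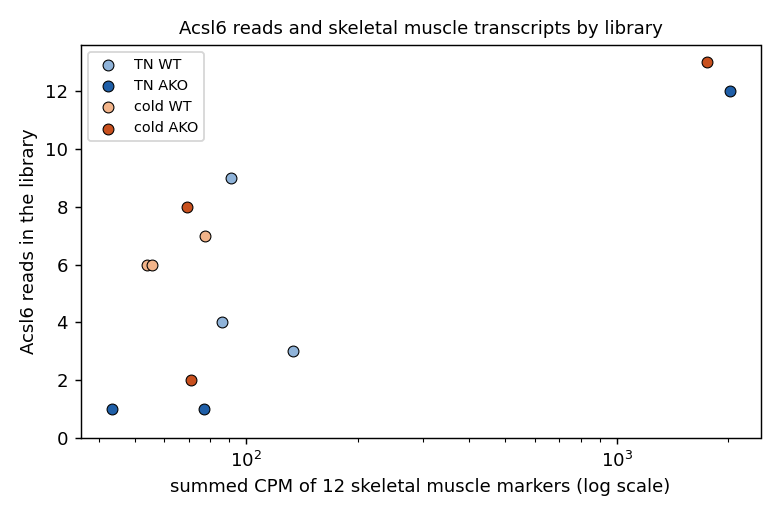
Reads of Acsl6 in each library (linear axis from 0) against the summed CPM of 12 skeletal muscle markers (log axis), coloured by group. The 2 libraries at 2017 and 1758 CPM of muscle markers have 12 and 13 reads, and the other 10 have between 1 and 9.

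**Figure D2:**
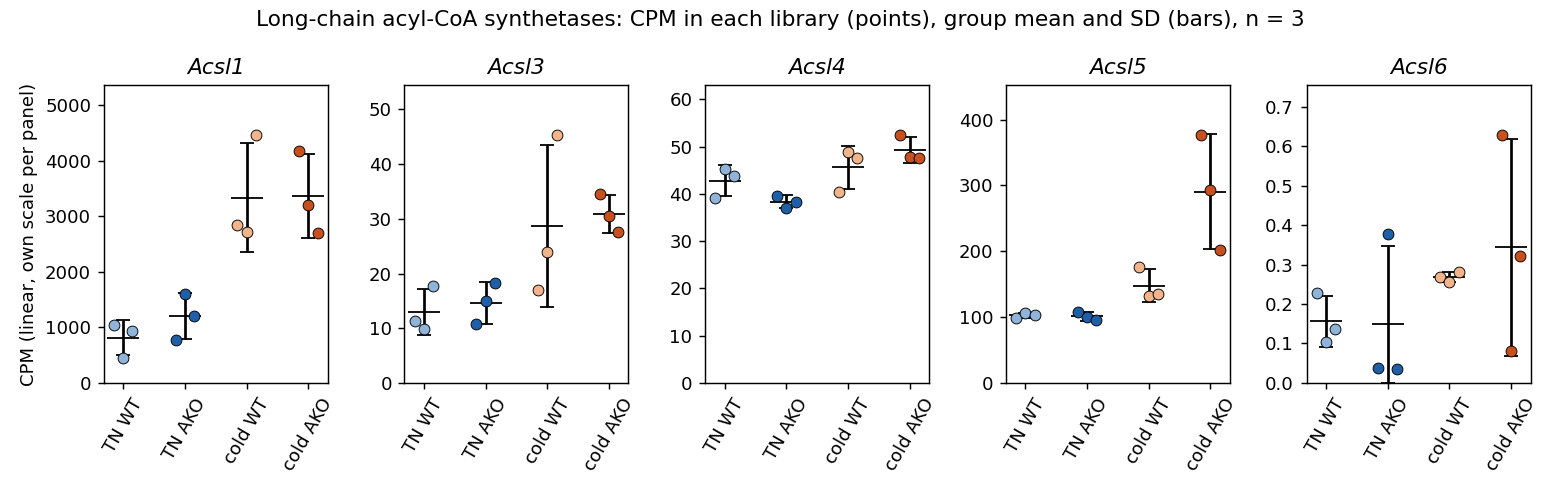
Points show CPM after TMM scaling for Acsl1, Acsl3, Acsl4, Acsl5 and Acsl6 in each of the 12 libraries, by group, with the group mean and SD (n = 3) as bars, on a linear axis from 0 with its own scale in each panel; for Acsl6 in TN AKO the lower bar stops at 0. All 6 cold libraries lie above all 6 TN libraries for Acsl1 and Acsl5, Acsl4 stays between 37.0 and 52.5 CPM, and Acsl6 stays below 0.63 CPM.

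The question of which members respond to cold was asked in each genotype. In WT, 2 of the 4 tested members (Acsl1 and Acsl3) passed an adjusted p under 0.05, where 21.3% of all 15306 tested genes did. In HIF2α AKO all 4 passed, against 27.0% of all genes. Averaged over genotypes all 4 passed, all of them higher in cold, against 48.8% of all genes. With only 4 tested members and so high a background, such a count says little about them, and the sizes of the changes set 3 apart from Acsl4. Averaged over genotypes, 2.13% of tested genes changed more than Acsl1, 6.55% more than Acsl3, 7.76% more than Acsl5 and 63.1% more than Acsl4. Groups did not overlap for 2 of the 4 members in WT (42.0% of all genes), for 4 of 4 in HIF2α AKO (50.5%) and for 2 of 4 when the 6 cold libraries were set against the 6 TN libraries (24.6%). The direction of calls over all genes depended on the scaling, with 3798 higher and 3669 lower in cold by TMM and 2102 higher and 7653 lower by library size alone. Within WT the split was 2389 higher and 870 lower by TMM and 1429 and 4459 by library size. Within HIF2α AKO it was 2381 higher and 1757 lower by TMM and 1516 and 4849 by library size. Acsl1, Acsl3 and Acsl5 were higher in cold under both.

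**Figure D3:**
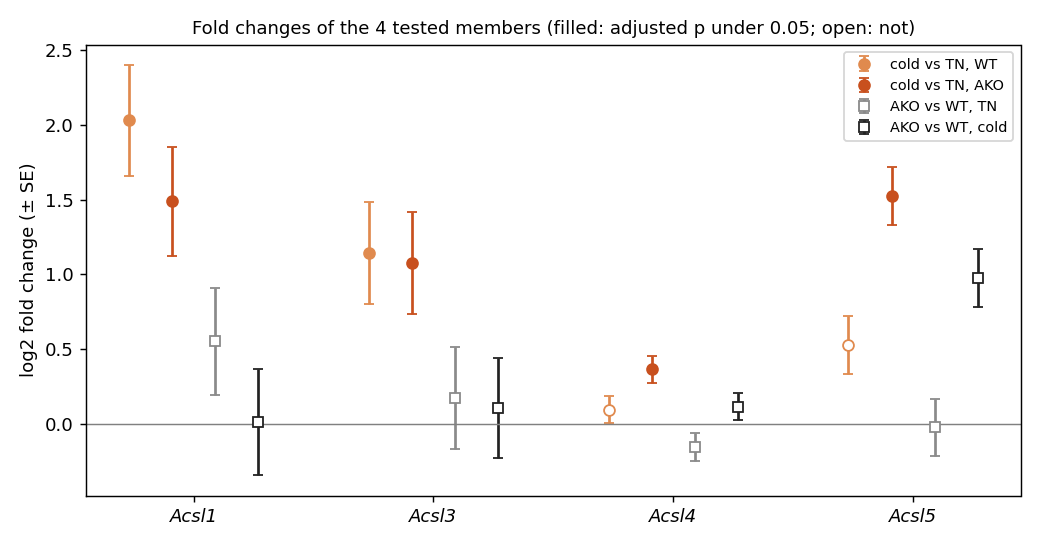
Log2 fold changes with their SE (edgeR) for Acsl1, Acsl3, Acsl4 and Acsl5 in 4 contrasts; circles compare cold with TN within a genotype, squares compare HIF2α AKO with WT at 1 temperature, and filled symbols passed an adjusted p under 0.05. Acsl1 stands at 2.03 and 1.49 upon cold, and the genotype contrast farthest from 0 is that of Acsl5 in cold, at 0.97 without passing the limit.

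The comparison of genotypes asked whether members differ with the loss of HIF2α in adipocytes, within the limit given above that whole-gene counts of Epas1 did not fall with the label. At TN, edgeR and DESeq2 each called 0 of 4 members, where edgeR called 0.00653% of all genes (1 gene) and 446 genes had an unadjusted p under 0.05. The log2 fold changes of HIF2α AKO against WT at TN were 0.55 (SE 0.36) for Acsl1, 0.17 (SE 0.34) for Acsl3, -0.16 (SE 0.092) for Acsl4 and -0.026 (SE 0.19) for Acsl5. In cold, edgeR again called 0 of 4 members, against 0.00653% of all genes (1 gene), while 451 genes had an unadjusted p under 0.05. At both temperatures these were fewer than a share of 0.05 of the tested genes, which would be reached without any difference. Acsl1 differed by 0.011 (SE 0.36), Acsl3 by 0.10 (SE 0.34) and Acsl4 by 0.11 (SE 0.092) on the log2 scale.

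Acsl5 was higher in all 3 cold libraries labelled HIF2α AKO than in all 3 cold WT libraries, which held in either direction for 7.53% of tested genes. Its log2 fold change in cold was 0.97 (SE 0.19, unadjusted p = 0.000377, adjusted p = 0.963, edgeR), the rank 6 among 15306 genes by p. DESeq2 on all 12 libraries called it (1.00, adjusted p = 0.00408), among 7 genes or 0.0457% of all. DESeq2 on the 6 cold libraries did not (0.98, adjusted p = 0.0871), and neither did voom (0.89, adjusted p = 0.628). Over all alternatives the log2 fold change lay between 0.74, without cold HIF2α AKO library 1, and 1.18, without cold HIF2α AKO library 3. Acsl5 stands on a list of genes that the study drew from these same libraries, so its direction is not independent evidence. Zdhhc6, which shares exon bases with it, differed by 0.028 (SE 0.080).

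The summed level of 8 thermogenic adipocyte markers did not overlap between genotypes in the same cold libraries. It was 3349 to 4863 CPM in cold WT and 5621 to 8580 CPM in cold HIF2α AKO. Ucp1 made up most of this sum, and the other markers are not given gene by gene between genotypes. Ucp1 was at 2171 to 3505 CPM in cold WT and at 4045 to 5895 CPM in cold HIF2α AKO (log2 fold change 0.83, SE 0.49, adjusted p = 1.00, edgeR). It was not called, and 7.53% of tested genes likewise did not overlap in either direction. Macrophage markers did not separate the genotypes, with summed levels of 1446 to 2801 CPM in cold WT and 1605 to 1837 CPM in cold HIF2α AKO. Cold HIF2α AKO library 1, with muscle transcripts at 1758 CPM, was the highest in Acsl5. It was also the highest in the thermogenic sum (8580 CPM) and in Ucp1 (5895 CPM). Without this library the log2 fold change of Acsl5 was 0.74. The part of the thermogenic and muscle transcripts in the Acsl5 difference was not tested.

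Whether the response to cold differed between genotypes was tested as an interaction. None of the 4 members passed by edgeR or DESeq2, and edgeR called 0% of all genes (0 of 15306, with 327 at an unadjusted p under 0.05). Those 327 were again fewer than a share of 0.05 of the tested genes. The interaction of Acsl5 was 1.00 (SE 0.27, unadjusted p = 0.00363, adjusted p = 1.00, edgeR) on the log2 scale, the rank 16 by p. It was -0.54 (SE 0.50) for Acsl1, -0.070 (SE 0.48) for Acsl3 and 0.27 (SE 0.13, unadjusted p = 0.0632) for Acsl4. The call of Acsl4 within HIF2α AKO and not within WT is therefore not a shown difference between genotypes.

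Levels were compared between members per kilobase of exon, using the union of protein-coding exons (4348 bases for Acsl1, 3988 for Acsl3, 5328 for Acsl4, 4795 for Acsl5 and 7735 for Acsl6). The union over all annotated transcripts was 10483 bases for Acsl1, and 4357, 5405, 4864 and 9914 for Acsl3, Acsl4, Acsl5 and Acsl6. With that length the level and share of Acsl1 and the family sum would be lower, and they were not computed with it. The summed level of the family was 221 ± 72.3 CPM per kb (SD, n = 3) in TN WT and 307 ± 94.6 in TN HIF2α AKO. In cold it was 814 ± 228 in WT and 851 ± 193 in HIF2α AKO. All 6 cold libraries, from 666 to 1077 CPM per kb, lay above all 6 TN libraries, from 138 to 401. Acsl1 made up 83.7 ± 6.72% of this sum in TN WT and 88.8 ± 3.90% in TN HIF2α AKO. In cold its share was 94.0 ± 1.28% in WT and 90.9 ± 0.493% in HIF2α AKO. The family sum is thus mostly a measure of Acsl1.

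Acsl5 came next per kilobase, at 21.4 ± 0.718, 21.1 ± 1.41, 30.8 ± 5.20 and 60.6 ± 18.2 CPM per kb in WT and HIF2α AKO at TN and then in WT and HIF2α AKO in cold. Acsl4 followed at 8.02 ± 0.613, 7.20 ± 0.244, 8.55 ± 0.863 and 9.25 ± 0.525 CPM per kb in the same order of groups. Acsl3 was below it at 3.27 ± 1.05 and 3.67 ± 0.954 CPM per kb in the TN groups. In cold WT and cold HIF2α AKO it was at 7.22 ± 3.71 and 7.75 ± 0.886. The ranges of Acsl3 and Acsl4 overlapped in cold WT, where Acsl3 reached 11.4 CPM per kb, and in none of the other 3 groups. Acsl6 was last, at 0.0444 CPM per kb or less in group means. The order did not change when the length of the longest transcript was used.

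The share of Acsl5 was 10.7 ± 4.59% in TN WT and 7.42 ± 2.89% in TN HIF2α AKO. In cold it was 4.00 ± 1.32% in WT, from 2.63 to 5.26%, and 7.04 ± 0.716% in HIF2α AKO, from 6.21 to 7.48%. The cold groups did not overlap, and the TN groups did. Shares of Acsl4 were 4.04% and 2.53% at TN and 1.10% and 1.12% in cold, for WT and HIF2α AKO. Shares of Acsl3 were 1.54% and 1.23% at TN and 0.856% and 0.925% in cold. A share falls when Acsl1 rises, so these values do not show a fall of the other members.

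**Figure D4:**
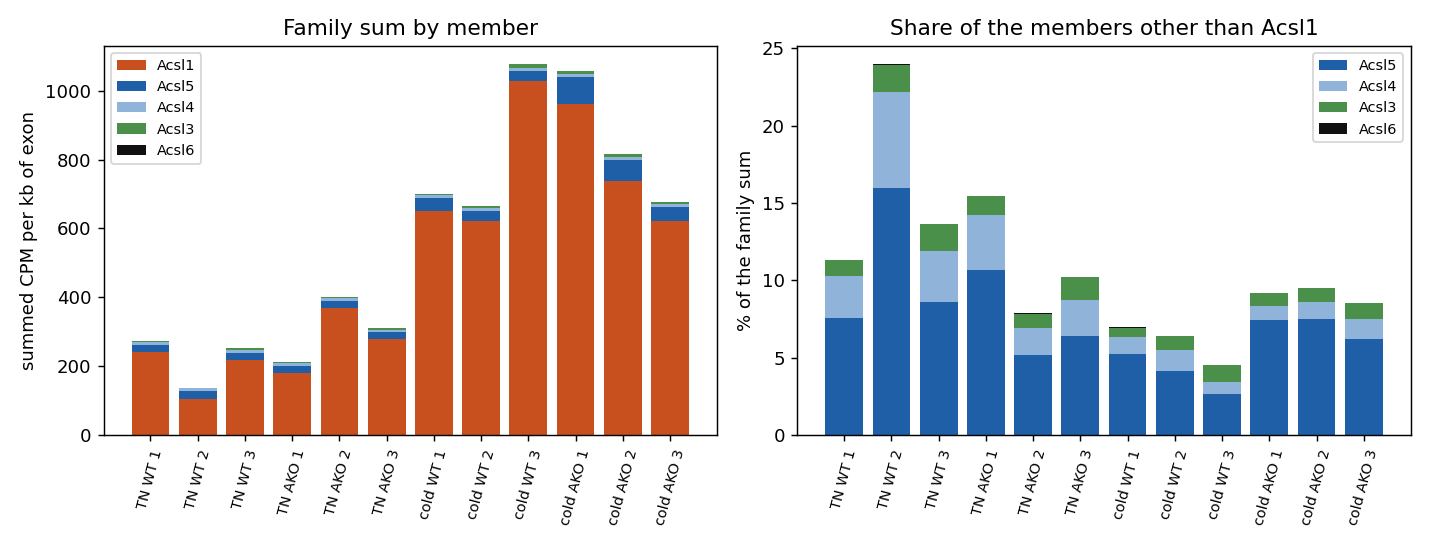
Stacked bars per library from 0: on the left the summed CPM per kb of exon of the 5 members, on the right the share of the family sum, in %, taken by the 4 members other than Acsl1. Family sums lie from 138 to 401 CPM per kb at TN and from 666 to 1077 in cold; TN WT 2, the library with the lowest sum, has the highest share outside Acsl1, and Acsl5 takes 6.21 to 7.48% in the cold AKO libraries.

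The ratio of 2 members within a library does not depend on the scaling, and it was used to ask which members changed unequally. All 10 pairs were compared between the 6 cold and 6 TN libraries by a two-sided exact permutation test within genotype, with 0.005 as the smallest p it can give. The log2 ratio of Acsl1 to Acsl4 was 4.54 ± 0.717 (SD, n = 6) at TN and 6.11 ± 0.290 in cold, a difference of 1.58 (exact permutation p = 0.005, adjusted over the 10 pairs 0.0167). It was higher in all 6 cold libraries than in all 6 TN libraries. The ratio of Acsl3 to Acsl4 rose by 0.86 and that of Acsl4 to Acsl5 fell by 0.77, both at the same exact p and adjusted p. Acsl1, Acsl3 and Acsl5 were thus each higher relative to Acsl4 in cold.

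Between the 3 responding members the ratios were less clear. Acsl1 to Acsl3 differed by 0.72 (exact permutation p = 0.02, adjusted 0.05, which is not under the limit). This pair passed in 4 of 15 alternatives, namely with 5 added to each count (adjusted exact permutation p = 0.04), without TN WT library 1 (0.0375), without TN HIF2α AKO library 2 (0.0125) and without both libraries with muscle transcripts (0.0417). Acsl1 to Acsl5 differed by 0.81 (exact permutation p = 0.05, adjusted 0.10) and Acsl3 to Acsl5 by 0.088 (exact permutation p = 0.835). None of the 4 ratios with Acsl6 passed, with adjusted p from 0.25 to 0.965. The 3 calls were lost without TN WT library 2, cold HIF2α AKO library 1 or cold HIF2α AKO library 2, where the adjusted p was 0.05. Without TN WT library 3 the call of Acsl4 to Acsl5 was lost, and without TN HIF2α AKO library 2 there were 5 calls.

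Genes that use or make acyl-CoA by other routes were followed by list, in cold against TN averaged over genotypes, where 48.8% of all genes were called and the median log2 fold change of all genes was -0.052. None of these lists had a gene called between genotypes by edgeR at either temperature. Among the other acyl-CoA synthetases, 7 of 14 tested genes were higher in cold, 1 was lower and 6 were not called, with a median of 0.74. Slc27a2, which activates very-long-chain fatty acids, stood at 0.423 ± 0.290 CPM at TN (SD, n = 6) and 70.5 ± 38.6 CPM in cold (log2 fold change 7.30, SE 0.34, adjusted p = 6.41e-07, edgeR). Slc27a1, a fatty acid transport protein with synthetase activity, rose by 1.81 (SE 0.29), from 398 to 1399 CPM. Acsf2, a medium-chain synthetase, rose by 1.54 (SE 0.16) and Acsf3, which activates malonate in mitochondria, by 1.09 (SE 0.17). Slc27a3, chosen after its value was seen as the gene that fell, changed by -0.46 (SE 0.13, adjusted p = 0.0123).

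The steps after activation showed the following counts. Of 12 genes for carnitine entry and mitochondrial β-oxidation, 10 were higher in cold and 0 lower, with a median of 2.39. Slc25a20, the carnitine carrier of the inner membrane, rose by 3.11 (SE 0.20) from 44.7 to 388 CPM. Acaa2, a thiolase of the last step, rose by 2.80 (SE 0.20), Acadl, the long-chain dehydrogenase, by 2.63 (SE 0.22), and Etfdh, which passes the electrons on to ubiquinone, by 2.57 (SE 0.19). The genes not called, named after their values were seen, were Cpt1a (0.24, SE 0.17) and Cpt1c (-0.17, SE 0.067).

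Of 12 tested genes for glycerolipid synthesis, 7 were higher and 0 lower, with a median of 0.93. Agpat2, which adds the second acyl chain of glycerolipids, rose by 2.76 (SE 0.41) from 409 to 2750.3 CPM. Gpam, which adds the initial chain, rose by 1.95 (SE 0.19), Lpin1, a phosphatidate phosphatase, by 1.66 (SE 0.25), and Dgat1, which makes triglyceride, by 1.47 (SE 0.18). The genes not called, named after their values were seen, were Gpat2, Agpat4, Lpin2, Lpin3 and Dgat2, between -0.34 and 0.93. Of these, Gpat2 passed the filter on low counts through the cold libraries alone. The listed Gpat3 and Gpat4 stood in the table under the older symbols Agpat9 and Agpat6 and changed by 0.81 (SE 0.27, adjusted p = 0.0263) and 1.28 (SE 0.11, adjusted p = 1.76e-05).

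Thioesterases split acyl-CoA back into fatty acid and coenzyme A, and the 13 tested genes of that list were called higher in cold. Acot3, Acot5 and Acot12, named after their values were seen, had at most 8 reads in a TN library and passed the filter on low counts through the cold libraries alone. They were thus kept for their cold values, and their calls are not read as a result. The other 10 genes were all called higher, with a median of 1.38, and the median with those 3 included was 2.20. Acot11, a thioesterase known from cold-exposed brown fat, rose by 3.49 (SE 0.17) from 9.71 to 121 CPM. Acot1, the cytosolic form, rose by 2.72 (SE 0.38), Acot4 of peroxisomes by 2.59 (SE 0.23) and Acot2 of mitochondria by 2.20 (SE 0.22). In the cold genotype contrast, Acot11 was higher in HIF2α AKO by 1.33 (SE 0.22, adjusted p = 0.438), without a call.

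Of 5 tested acyl-CoA binding proteins, 4 were higher and 0 lower, with a median of 0.40. Without TN WT library 1, TN HIF2α AKO library 1 or 3, cold WT library 3 or cold HIF2α AKO library 1 or 2, 2 were called. Dbi, the common acyl-CoA binding protein, was at 596 ± 236 CPM at TN and 1170 ± 192 CPM in cold (0.97, SE 0.26, adjusted p = 0.0109). Acbd4 rose by 0.67 (SE 0.23), Acbd6 by 0.40 (SE 0.095) and Acbd5 by 0.39 (SE 0.13). Acbd3, chosen after its value was seen, was not called (-0.038, SE 0.051).

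Genes that act with or against ACSL4 in polyunsaturated phospholipids moved in both directions, with 3 higher, 4 lower and 2 not called of 9, and a median of -0.46. Lpcat3, which builds polyunsaturated acyl-CoA into phospholipid, rose by 1.31 (SE 0.22). Aifm2 and Gpx4, which protect lipids from peroxidation, rose by 1.25 (SE 0.23) and 0.92 (SE 0.22). Lpcat2 fell by 0.64 (SE 0.21, adjusted p = 0.0267), and Lpcat1, Lpcat4 and Mboat1, named after their values were seen, fell by 0.46, 0.49 and 0.60. Mboat7 (0.013) and Slc7a11 (-0.46) were not called. Without both libraries with muscle transcripts, 2 genes were lower. Under library size scaling the counts higher and lower in cold were 7 and 2 for the other synthetases, 10 and 1 for oxidation and 7 and 2 for glycerolipid synthesis. They were 12 and 0 for thioesterases, 1 and 1 for binding proteins and 3 and 5 for the partners of Acsl4.

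**Figure D5:**
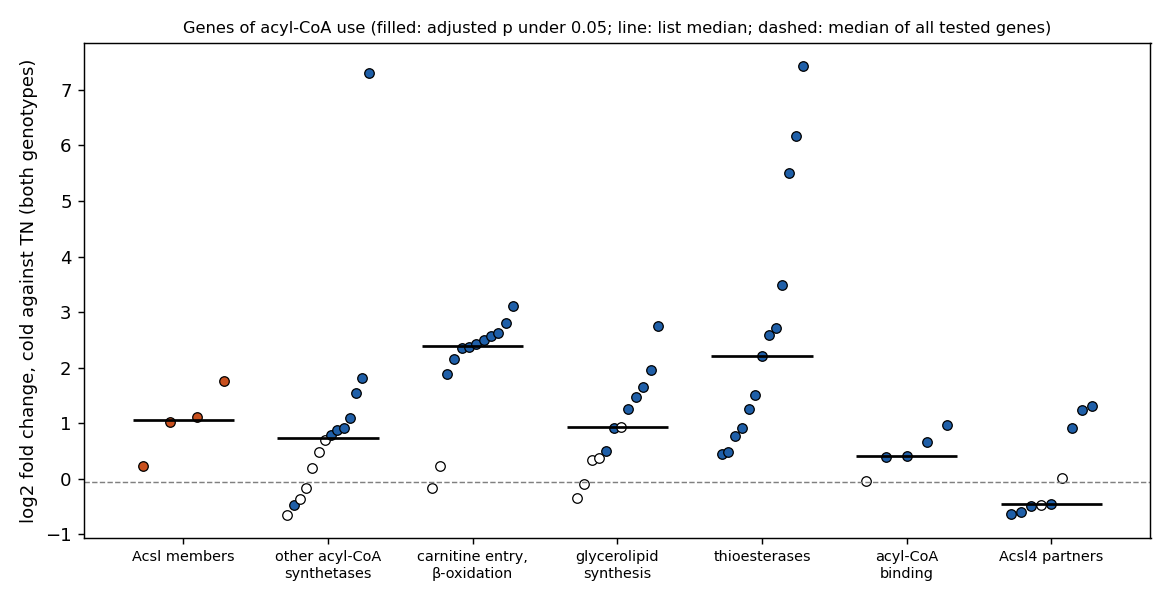
Each point is a tested gene, by list, at its log2 fold change in cold against TN averaged over genotypes; filled points passed an adjusted p under 0.05, lines give list medians and the dashed line the median of all tested genes, -0.052. Oxidation genes and thioesterases have medians of 2.39 and 2.20 (1.38 without the 3 thioesterases that passed the filter through the cold libraries alone), acyl-CoA synthetases outside the family 0.74 and partners of Acsl4 -0.46.

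Among 12175 other genes with a mean count of at least 100, those with the most similar pattern over the 12 libraries were named for each called member by the root mean square difference of centred log2 CPM. For Acsl1, whose own SD was 1.05 on this scale, these were Nrg4 (0.142), Cpt2 (0.155) and Pmm1 (0.156). Nrg4 encodes a secreted factor of fat and Cpt2 the inner carnitine palmitoyltransferase. For Acsl3 (SD 0.70) they were Ppp2r5b (0.149), Mrpl50 (0.159) and Lactb2 (0.159), and for Acsl4 (SD 0.16) Lsm3 (0.061), Sugt1 (0.063) and Brd7 (0.064). For Acsl5 (SD 0.66) they were Rom1 (0.205), Rnf152 (0.221) and Mob1b (0.242), so that its pattern had no neighbour as near as those of Acsl1 or Acsl3. All 12 libraries fall into 2 temperatures, so genes with a like change upon cold have a like pattern here.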

How the data were processed

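The input was the gene-level read counts deposited by the authors for 12 iWAT libraries. Per the labels and the study's methods, reads were trimmed (Trim Galore 0.4.4), aligned to GRCm38 (STAR 2.6.1d) and counted (HTSeq 0.13.5). The annotation and strand setting are not given in the sources used here. The values were whole counts without normalization, and the series table equalled the tables of all 12 libraries. The 5 tallies outside genes, 21.9 to 27.0% of reads, were left out, and 3944 of 23420 genes had 0 counts throughout.

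Libraries were grouped by label. With R 4.3.3 and edgeR 4.0.16, 15306 genes passed filterByExpr (minimum count 10, minimum total 15). TMM factors (0.829 to 1.20) and 1 quasi-likelihood model of 4 groups were fitted, and Benjamini-Hochberg adjustment covered all tested genes (limit 0.05). The common biological coefficient of variation was 0.202, with 8 residual degrees of freedom. CPM used TMM scaling, log2 CPM a prior count of 2 and ratios 0.5 added to each count. Alternatives were DESeq2 1.42.0 and voom (limma 3.58.1), other scalings and filters, a replicate block and leaving out libraries. Scripts were tested on simulated data. Replicate numbers did not pair the libraries.

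Members and lists were chosen with earlier results of these data known. Named genes were the members, up to 4 genes per list with the largest absolute log2 fold change among those called in the averaged cold contrast at a mean count of 50 or more, 3 genes nearest in pattern per called member, Epas1 and Ucp1. Others are said to be chosen after their values were seen, apart from the genes that share exon bases with members, Adipoq, Agpat9 and Agpat6.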

Additional observations from a re-analysis of the deposited data

How the results depend on the processing

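Changes of Acsl1, Acsl3 and Acsl5 upon cold averaged over genotypes, and of Acsl1 in WT and Acsl5 in HIF2α AKO, kept their direction and side of the limit under each alternative run. Within genotypes, 3 libraries per group left several calls near the limit, and 1 library could decide them. Members called in WT (2) fell to 1 with only the 6 compared libraries and ranged from 1 to 3 with 1 library left out. Members called in HIF2α AKO (4) fell to 1 without both libraries with muscle transcripts, an alternative chosen after seeing the data, and ranged from 1 to 4 with 1 left out. In cold between genotypes, edgeR called 0 members, also with any 1 library left out, and DESeq2 on all libraries called 1. DESeq2 was not rerun with a library left out. Binding proteins called fell from 4 to 2 with library size only and ranged from 2 to 4 with 1 left out. Pairs with unequal ratios were 5 with 5 added to each count, 0 under the genotype and replicate block (adjusted p 0.104, where 3 pairs at the smallest possible p cannot pass) and 0 to 5 with 1 left out.

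Library size only turned Acsl4 to -0.21 in WT and to -0.058 averaged, and Acsl1 between genotypes in cold to -0.0070, which was -0.18 without both libraries with muscle transcripts. The interaction of Acsl3 was 0.049 under the replicate block, and with 5 added the ratios Acsl3 to Acsl6 and Acsl5 to Acsl6 were 0.38 and 0.30. With 1 library left out, values that turned sign ranged from -0.020 to 0.46 (Acsl3 between genotypes at TN), -0.079 to 0.016 (Acsl5 at TN), -0.18 to 0.28 (Acsl1 in cold), -0.17 to 0.59 (Acsl3 in cold) and -0.36 to 0.42 (interaction of Acsl3). Ratios ranged from -0.14 to 0.31 (Acsl3 to Acsl5), -0.48 to 0.32 (Acsl3 to Acsl6) and -0.59 to 0.13 (Acsl5 to Acsl6). The causes were not tested, apart from the fewer libraries or the counts added. Genes called over all ranged from 1381 to 5888 in WT (3259), from 1514 to 6365 in HIF2α AKO (4138), from 0 to 9 between genotypes at TN and from 0 to 12 in cold. Of 18 pairs of libraries with the same number, 5 deviated together with a correlation above 0.1 (from -0.43 to 0.39), so the replicate block, under which Acsl5 in cold was 0.96 (adjusted p = 0.848), is a check only.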
